A study of Rattus norvegicus with 64 samples.

Results

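The 10 genes described here are immediate early genes of whole blood: Fos, Fosb, Jun, Junb, Jund, Egr1, Ier2, Ier3, Atf3 and Klf6. They were taken by symbol from the gene names in the deposited count files, each matched 1 identifier, and all 10 were among the 17366 genes listed for every rat and among the 14000 that passed the filter on low counts. RNA-seq had been done on globin-depleted whole blood from 64 male Sprague-Dawley rats aged 85 to 90 days in 5 groups, with 19055615 to 40530319 counts per rat. Per the study's methods, rats received 4 subcutaneous injections 2 h apart and blood was taken by cardiac puncture 3 h after the last injection. Control rats received saline at 22.5 °C (n = 6) and Control cool rats received saline at 16 °C (n = 5). AMPH hot rats received amphetamine at 22.5 °C and are labelled hyperthermic (n = 22), whereas AMPH normo rats received amphetamine at 16 °C and are labelled normothermic (n = 15). EIH rats received saline in a 39 °C environment and are labelled hyperthermic (n = 16). The amphetamine doses stated for the neurotoxic exposure were 5 mg/kg, then 7.5 mg/kg, then 10 mg/kg given in both later injections. Body temperatures of single rats were not used here. The Control rats were numbered 17 to 22, and no Control rat with a lower number was present. The study's paper describes a larger set of saline control rats, killed on several dates. It states that the initial sequencing of the latest control group was poorer, owing to a library reagent, and was repeated. Whether the Control libraries used here are from that group, and from which sequencing, was not tested.

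Immediate early genes are transcribed within minutes of a stimulus without new protein synthesis, and many of their messages decay quickly. Serum response factor, ternary complex factors and CREB, acting downstream of MAP kinases, are their usual activators. Fos and Jun proteins dimerize through leucine zippers into AP-1, Atf3 is a stress-induced member of the ATF family that can pair with Jun proteins, Egr1 and Klf6 are zinc finger factors, and Ier2 and Ier3 are small proteins named for their rapid induction. In blood, these genes are known to respond in granulocytes and monocytes to adhesion, cytokines and handling. Ier3 is a regulator of survival signalling rather than a DNA-binding factor.

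RefSeq promoter windows on the GRCr8 assembly were held for 6 of the 10 genes, and the 250 bases upstream of the annotated start are shown for 3 of them because they hold sites for the activators named above. Capitals mark a serum response element (the CArG box) in Egr1 and a cyclic AMP response element (TGACGTCA) in Jund and Ier2.
Egr1, chr18:26736828-26737077, plus strand: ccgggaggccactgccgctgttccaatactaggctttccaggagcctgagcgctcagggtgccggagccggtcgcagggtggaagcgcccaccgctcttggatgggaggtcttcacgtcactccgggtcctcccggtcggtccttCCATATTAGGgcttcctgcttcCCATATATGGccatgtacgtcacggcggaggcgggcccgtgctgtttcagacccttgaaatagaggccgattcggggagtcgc
Jund, chr16:18769772-18770021, minus strand: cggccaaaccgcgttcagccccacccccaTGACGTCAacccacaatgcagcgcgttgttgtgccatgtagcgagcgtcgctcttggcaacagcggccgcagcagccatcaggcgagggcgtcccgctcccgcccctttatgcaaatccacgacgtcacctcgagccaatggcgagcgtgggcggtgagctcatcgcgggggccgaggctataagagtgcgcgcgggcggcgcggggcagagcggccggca
Ier2, chr19:40399123-40399372, plus strand: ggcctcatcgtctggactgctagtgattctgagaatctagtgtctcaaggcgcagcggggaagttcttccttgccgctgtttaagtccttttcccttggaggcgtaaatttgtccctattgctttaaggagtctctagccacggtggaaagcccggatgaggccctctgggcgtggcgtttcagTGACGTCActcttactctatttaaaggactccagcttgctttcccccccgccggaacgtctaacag
The Egr1 window held 2 CArG boxes, and Klf6 was the other member with a match. On either strand, a CArG box was found in 1.5% of 33469 promoter windows of this length and TGACGTCA in 1.59%. A pair of inverted heat shock units (GAANNTTC) occurred in 7.23% of windows and an AP-1 site (TGANTCA) in 6.34%, and neither was found in the 6 member windows. These are matches of letters in an assembly other than rn5, on which the counts were made, and they are not measurements of binding.

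Among the libraries, 4 stood apart in these genes or overall. The library labelled AMPH hot 17 had the lowest level of 7 members in its group, with 58.8 normalized counts of Jun and 616 of Junb, and 15.2 of Hspa1b, a heat-inducible chaperone whose median in the group was 17333. AMPH hot 16 also had few Hspa1b counts (74.3). AMPH hot 21 correlated least with the other libraries (median r = 0.781, against 0.807 to 0.935 in the other rats) and had the lowest Fos of the series (122). Control 19 had the highest level of 7 members among the Control rats, including Fos at 946. The library labelled AMPH hot 17 lay within the Control range for all 10 members, whereas the library labelled Control 19 had 23.2 normalized counts of Hspa1b, within the range of the other saline rats. Whether the labels of these 2 libraries were exchanged was not tested. Both kept their labels, and results are given with and without them. Normalized counts are expected counts divided by a size factor for depth, so levels of different genes are not comparable per length.

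**Figure D1:**
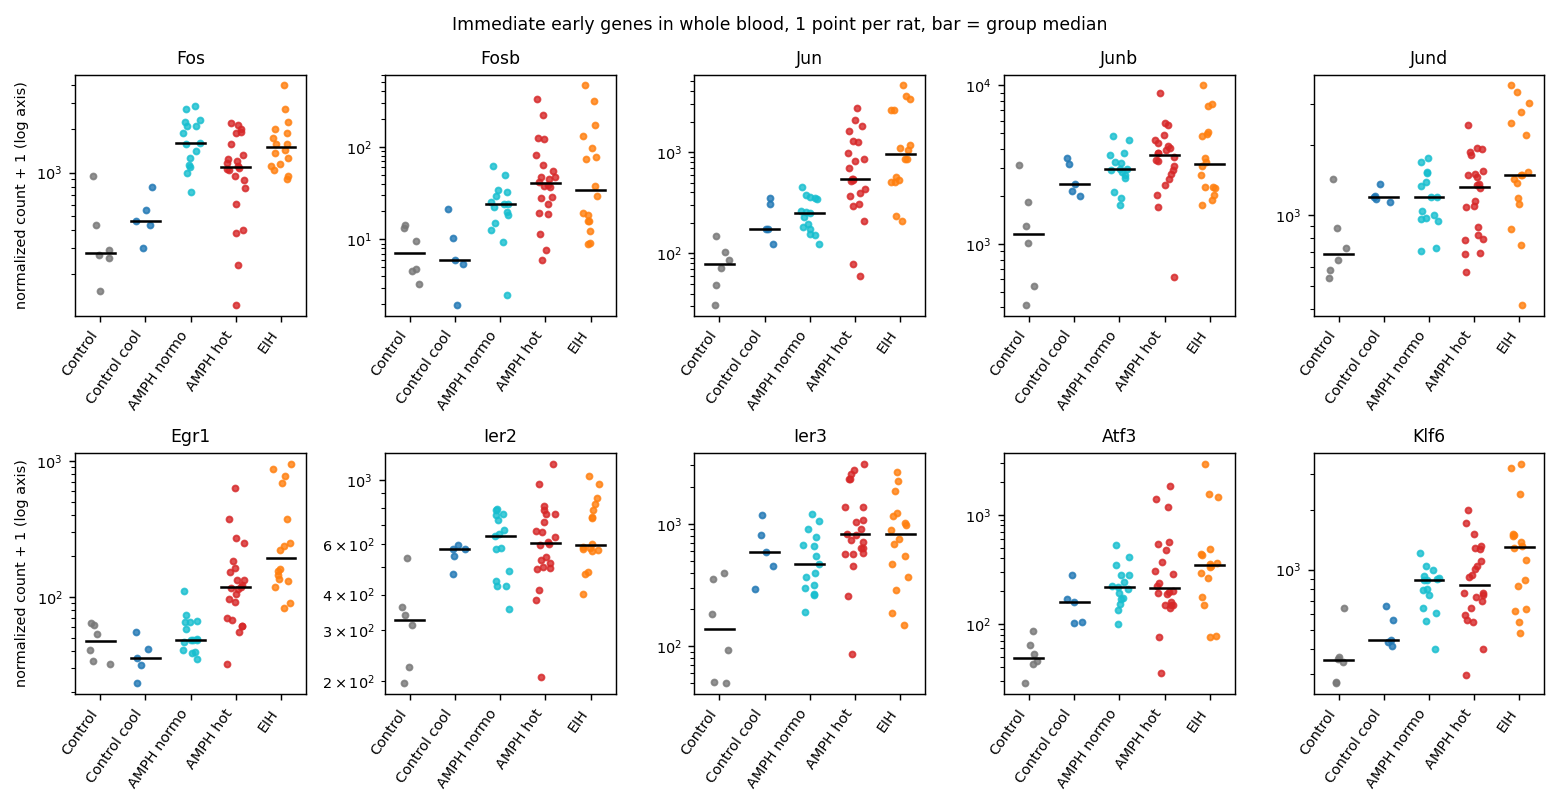
Normalized counts plus 1 (log axes, scaled separately in each panel) of the 10 immediate early genes in each rat, by treatment group, with a bar at the group median. The Fos medians of AMPH normo, AMPH hot and EIH were 1601, 1089 and 1499.5, against 279 in Control, whereas the Jun and Egr1 medians of AMPH normo, 249 and 47.3, lay below those of AMPH hot and EIH.

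The group medians were highest in EIH for 6 genes (Jun, Jund, Egr1, Ier3, Atf3 and Klf6), in AMPH hot for Fosb and Junb, and in AMPH normo for Fos and Ier2. Control had the lowest median for 8 genes, and Control cool for Fosb and Egr1. The ratio of the highest to the lowest group median ran from 1.96 for Ier2 to 12.2 for Jun. Variation between rats differed between genes and groups. In EIH, the coefficient of variation was 138% for Fosb and 125% for Atf3, and 27.3% for Ier2. In Control cool, it was 7.01% for Jund and 8.88% for Ier2. In Control, where the Fos median was lowest, that of Fos was 73.3%, against 37.4% in AMPH normo.

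Fos encodes the AP-1 subunit that must pair with a Jun protein to bind DNA. Its level in the Control rats ran from 151 to 946 normalized counts with a median of 279. The 5 Control cool rats had 798, 299, 551, 465.9 and 435 normalized counts of Fos. In AMPH normo rats, it ran from 737 to 2864 with a median of 1601, and 14 of the 15 rats lay above the highest Control cool rat. AMPH hot rats lay between 122 and 2200 (median 1089) and EIH rats between 899 and 3985 (median 1499.5). The EIH range overlapped Control only through Control 19, and 15 of 22 AMPH hot rats lay above every Control rat. By median, the order was Control, Control cool, AMPH hot, EIH and AMPH normo. No share over all genes was computed for these counts of rats. In the joint fit described below, Fos passed in no comparison, those of AMPH hot, AMPH normo and EIH with saline rats included. The test was edgeR's quasi-likelihood test with Benjamini-Hochberg adjustment over 14000 genes. By this test, its adjusted p was 0.981 in Control cool against Control, 0.428 in EIH against AMPH hot and 0.246 in AMPH hot against AMPH normo.

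Jun, the main partner of Fos and also able to pair with itself, showed the widest separation. Control rats had 30.1 to 147 normalized counts (median 77.8). The 5 Control cool rats had 309, 350, 174, 124 and 174 normalized counts. AMPH normo rats had 124 to 448 (median 249), AMPH hot rats 58.8 to 2752 (median 543) and EIH rats 206 to 4543 (median 952). All 16 EIH rats lay above all 6 Control rats, which was so of 1.04% of genes tested, as did 20 of the 22 AMPH hot rats. The exceptions among AMPH hot were rats 17 and 21. Between AMPH hot and AMPH normo, 14 of 22 rats lay above the highest AMPH normo rat.

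Egr1, a zinc finger factor driven by serum response elements, was low in the rats that were not labelled hyperthermic. It ran from 30.9 to 63.0 normalized counts in Control (median 46.4) and from 33.9 to 109 in AMPH normo (median 47.3). Control cool rats had 40.1, 54.0, 22.3, 34.8 and 30.8 normalized counts. AMPH hot rats had 31.0 to 631 (median 117) and EIH rats 82.2 to 950 (median 191). All EIH rats lay above all Control rats, which was so of 1.04% of genes tested, but Egr1 did not pass in the fit of EIH against Control. Of the EIH rats, 14 of 16 lay above every AMPH normo rat. No share over all genes was computed for separation from AMPH normo. Among AMPH hot rats, 13 of 22 exceeded every AMPH normo rat. The AMPH normo maximum came from rat 12, which was left out of the fits for its high count of the muscle transcript Mb.

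Atf3, a stress-induced repressor or activator depending on its partner, ran from 27.7 to 85.9 normalized counts in Control, with a median of 48.2. The Control cool rats had 279, 159, 101, 103 and 167, so that every Control cool rat lay above every Control rat. This was so of 1.92% of the 14000 genes tested. AMPH normo rats had 98.8 to 533 (median 218), AMPH hot rats 34.1 to 1823 (median 212) and EIH rats 75.3 to 2930 (median 344). Both AMPH groups had medians close to each other, and the EIH and AMPH hot tails reached further.

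Ier3, which modulates apoptosis and NF-kappa-B signalling, ran from 49.0 to 396 normalized counts in Control (median 137) and was 810, 1180, 586, 447 and 290 in the Control cool rats. AMPH normo rats had 190 to 1207 (median 467), AMPH hot rats 85.8 to 3092 (median 818) and EIH rats 149 to 2667 (median 820). Klf6, a Krüppel-like factor active in myeloid cells among others, ran from 269 to 639 normalized counts in Control (median 350). The Control cool rats had 441, 412, 653, 555 and 432. AMPH normo rats had 397 to 1207 (median 886), AMPH hot rats 297 to 1995 (median 836) and EIH rats 478 to 3392 (median 1301). For Klf6, 11 of 15 AMPH normo rats lay above every Control cool rat.

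Junb and Jund, further Jun proteins of which Jund is commonly expressed without stimulus, and Ier2 varied less between groups. Junb medians were 1160 in Control, 2395 in Control cool, 2967 in AMPH normo, 3656 in AMPH hot and 3202 in EIH. Jund medians were 687, 1197, 1200, 1326 and 1486 in the same order, and Ier2 medians were 325, 574, 638, 605 and 592. Ranges of these genes overlapped between all groups compared. Fosb, a further Fos protein, was at low counts in both saline groups at 16 and 22.5 °C (0.96 to 20.1 normalized counts). Its medians were 23.1 in AMPH normo, 39.1 in AMPH hot and 32.8 in EIH, and its highest levels were 328 in AMPH hot rat 22 and 459 in EIH rat 16.

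The effect of amphetamine at 22.5 °C was taken from AMPH hot against Control, in a joint edgeR quasi-likelihood fit with the library code as a term and with 59 rats. Since the 4 Control rats in the fit shared their 2 library codes only with AMPH hot rats, this difference rested on 7 AMPH hot against 4 Control rats. Jun was 11.1-fold higher (log2 fold change 3.47 ± 0.73 SE, adjusted p = 0.0106), Ier3 was 9.24-fold higher (3.21 ± 0.73, adjusted p = 0.0149) and Atf3 was 6.05-fold higher (2.60 ± 0.73, adjusted p = 0.0438). These 3 of 10 genes rose, and none fell, where 2.18% of the 14000 genes tested were called higher. The fitted log2 change was positive for all 10, with a median of 1.36 against -0.03 over all genes. The other 7 did not pass: Klf6 had 1.28 ± 0.40 (adjusted p = 0.0625), Junb 1.41 ± 0.48 (adjusted p = 0.0886), Egr1 1.32 ± 0.50 (adjusted p = 0.118), Fos 1.10 ± 0.44 (adjusted p = 0.140), and Ier2, Fosb and Jund had adjusted p from 0.1196 to 0.285. Control and AMPH hot rats shared 2 library codes, and the difference of mean log2 levels within each was positive for all 10 genes. For Jun, it was 2.89 in the code with 6 AMPH hot and 3 Control rats and 4.61 in the code with 1 rat of each group. A fit to these rats alone gave Jun a log2 fold change of 3.49 ± 0.86, and no gene of the 12799 tested passed in it, Jun, Ier3 and Atf3 having an adjusted p = 0.266 by edgeR, with 2340 genes at an unadjusted p under 0.05.

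The effect of a 39 °C environment in saline rats was taken from EIH against Control. Jun was 15.7-fold higher (log2 3.98 ± 0.83, adjusted p = 0.0138), Ier3 was 7.77-fold higher (2.96 ± 0.82, adjusted p = 0.0400) and Klf6 was 3.88-fold higher (1.96 ± 0.48, adjusted p = 0.0239). Of the 10 genes, 3 rose and none fell, where 1.94% of all genes tested were called higher. The median log2 change of the 10 was 1.68 against -0.04 over all genes. Atf3 (2.76 ± 0.84, adjusted p = 0.0561), Egr1 (1.84 ± 0.59, adjusted p = 0.0651) and Fos (1.53 ± 0.53, adjusted p = 0.0775) did not pass. Both comparisons share the Control rats. EIH and Control shared no library code, and Control shared its codes only with AMPH hot rats. The fitted difference therefore runs through that of AMPH hot against Control, and its calls are not independent of those above. In EIH against AMPH hot, none of the 10 genes passed.

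Both comparisons depended on single libraries and on the fit. AMPH hot 17 and Control 19 were singled out with their levels of these genes known, each at the end of its group nearest the other group for 7 members, so leaving them out widens the difference by construction and gives no independent support. In AMPH hot against Control, 8 of 10 genes rose without AMPH hot 17, 7 without Control 19 and 8 without both, where 7.5%, 7.04% and 11.2% of all genes tested were called higher. None was called without Control 17, 18 or 21, where 0.127%, 0.0845% and 0.0564% of all genes were called higher. In EIH against Control, the counts were 9 without AMPH hot 17, 8 without Control 19 and 9 without both, with 7.03%, 6.24% and 10.3% of all genes called higher, and they were 1 without Control 17 and none without Control 18 or 21 (0.289%, 0.162% and 0.0353%). Without the library code term, 9 of 10 rose in AMPH hot (6.67% of all genes) and 10 of 10 in EIH (13.2%).

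**Figure D2:**
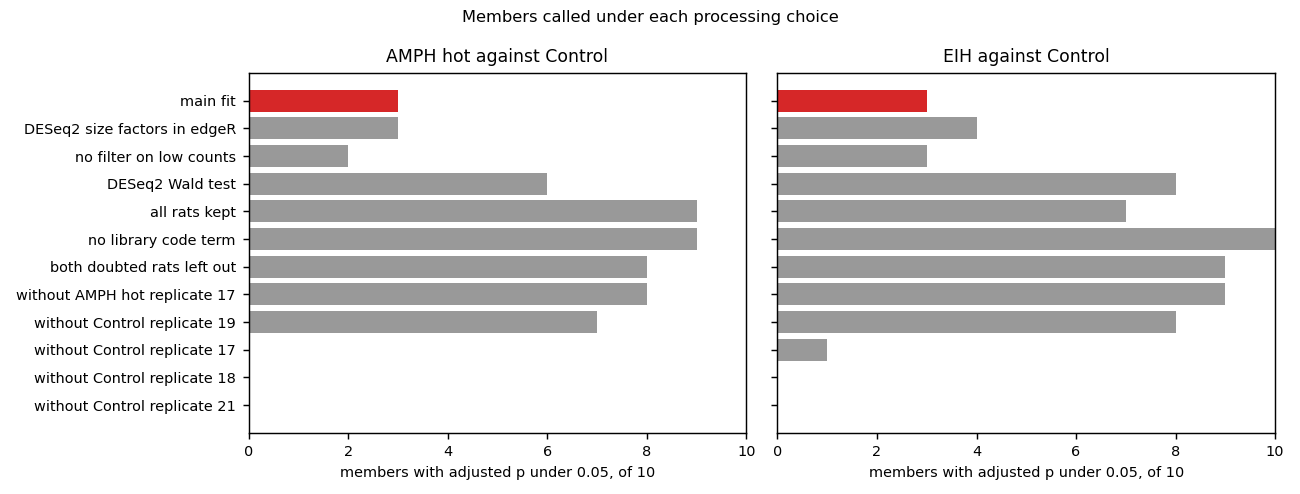
Number of the 10 genes with adjusted p under 0.05 (bars, starting at 0) in AMPH hot against Control and EIH against Control under each processing choice, with the fit reported above on top. Counts ran from 0 to 9 in the first comparison and from 0 to 10 in the second.

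Blood cell markers were summed in each rat, and some of these sums had different medians in Control and Control cool. The normalized counts were added without scaling each gene, so the most abundant markers of a list weigh most in its sum. In the fit, no marker of the 8 cell types passed in Control cool against Control. Without both AMPH hot 17 and Control 19, 2 of 6 neutrophil markers were called higher in that comparison, as were 142 of all 14183 genes. Summed levels of 6 neutrophil markers ran from 32565 to 426303 normalized counts in Control (median 129360) and from 356924 to 807218 in Control cool (median 555200). AMPH normo rats had 241429 to 735354, AMPH hot rats 48646 to 998140 and EIH rats 59892 to 327854. Summed T cell markers, of which all 6 were detected, had medians of 9370 in Control, 6071 in Control cool, 4326 in AMPH normo, 4409 in AMPH hot and 2721 in EIH. The platelet marker Ppbp rose by 2.88 on the log2 scale in AMPH hot against Control (adjusted p = 0.0012) and the T cell marker Cd2 fell by 1.68 in EIH against Control (adjusted p = 0.0266). The neutrophil receptor Csf3r rose by 1.42 in AMPH hot against Control (adjusted p = 0.0367). Ppbp also rose in EIH against Control (2.35, adjusted p = 0.0203). No monocyte, B cell or cardiac muscle marker passed in these comparisons with both rats kept. Without both AMPH hot 17 and Control 19, 6 of 6 neutrophil markers, 2 of 4 platelet markers and 2 of 5 monocyte markers rose in AMPH hot against Control, and 6 of 6 T cell markers, 1 monocyte marker and 1 NK cell marker fell. In EIH against Control without them, 4 neutrophil, 3 platelet, 1 monocyte and 1 reticulocyte marker rose and 6 of 6 T cell markers fell. B cell and cardiac muscle markers did not pass without them either. Monocyte sums had medians of 175999 in Control, 263915 in Control cool, 355323 in AMPH normo, 328649 in AMPH hot and 396663 in EIH. Gene by gene, the fit of Control cool against Control did not follow these sums. None of the 5 monocyte markers tested had a positive log2 change (median -1.25). Without the library code term, 1 of 5 did (median -0.20). B cell sums had medians of 10658, 9777, 4010, 5470 and 5586 in the same order of groups. Of the markers on all lists, those at a median of 0 were 4 of the 5 cardiac muscle genes, in Control cool. AMPH hot 17 summed to 48646 for neutrophil and 11351 for T cell markers, whereas Control 19 summed to 426303 and 7177. Whether cell composition has a part in the levels of the immediate early genes was not tested. From whole-blood RNA alone, a change in the share of a cell type and a change in its RNA per cell cannot be told apart. The study's paper reports blood cell counts, with more monocytes and neutrophils and fewer lymphocytes after neurotoxic amphetamine than in controls. It proposes that these counts may account for part, but not all, of its expression changes. Those counts were not used here.

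At 16 °C, AMPH normo was compared with Control cool (13 and 5 rats in the fit). No gene of the 14000 passed (0%), with 1499 at an unadjusted p under 0.05 and 91 called by DESeq2, none of them among the 10. Fos had the smallest p of the 10 and a log2 change of 1.54 ± 0.51 (2.91-fold, unadjusted p = 0.00426 by edgeR, adjusted p = 0.222). Fosb had 2.01 ± 0.96 (adjusted p = 0.443). For the other 8 genes, the log2 change ran from 0.21 for Junb to 0.70 for Klf6. Intervals of 2 SE on each side were -1.10 to 1.89 for Jun and -0.51 to 1.81 for Egr1, which left room for sizeable changes in both. All 5 Control cool rats had 1 library code, which they shared with 1 AMPH normo, 1 AMPH hot and 1 EIH rat. With the code as a term, the fitted difference was tied through these few rats rather than resting on 13 against 5. That AMPH normo rat had a Fos level of 1601, above all 5 Control cool rats.

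The difference between environments in amphetamine-treated rats was given by AMPH hot against AMPH normo. Egr1 rose by 1.33 ± 0.33 on the log2 scale in AMPH hot (2.52-fold, adjusted p = 0.00696), and it was higher in each of the 5 library codes that held both groups (0.84 to 1.78). It was the 1 of 10 genes that passed, where 5.61% of the genes tested were called higher and 10.3% were called in either direction, so that the share of the 10 called was close to that of all genes. Jun had 1.10 ± 0.44 (adjusted p = 0.0990) and Fos had -0.55 ± 0.29 (adjusted p = 0.246). Fos was lower in AMPH hot in 4 of the 5 library codes. Ier2, Junb, Jund, Klf6 and Atf3 had log2 changes between -0.09 and 0.19. In the fit within shared library codes, Egr1 (1.45 ± 0.20, adjusted p = 0.0002), Jun (1.13 ± 0.32, adjusted p = 0.0252) and Fosb (0.91 ± 0.25, adjusted p = 0.0198) passed, with 7.95% of all genes called higher. NK cell markers Ncr1 (-1.64, adjusted p = 0.0001) and Nkg7 (-0.84, adjusted p = 0.0376) fell in the same comparison, as did the red cell transcripts Hba-a2 (-1.45, adjusted p = 0.0253) and Slc4a1 (-0.92, adjusted p = 0.0259), and Ppbp rose (1.32, adjusted p = 0.0030). Their part in the result was not tested.

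**Figure D3:**
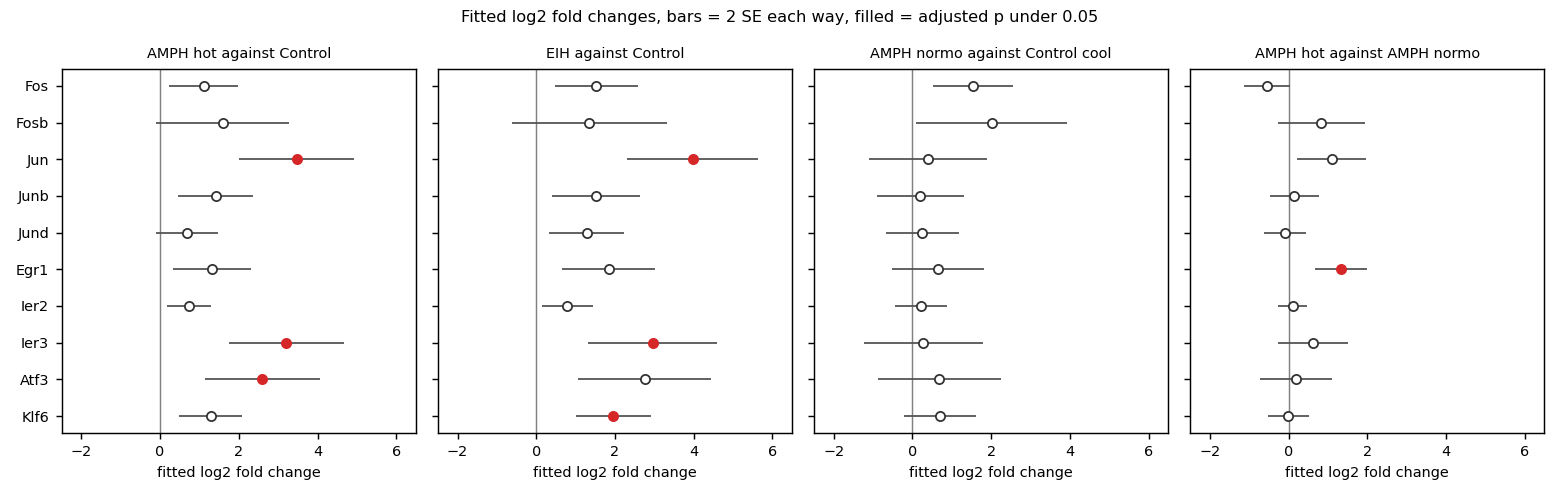
Fitted log2 fold changes of the 10 genes in 4 comparisons (x axis, the same scale in each panel), with bars of 2 SE on each side and filled points where the adjusted p was under 0.05. Jun, Ier3 and Atf3 passed in AMPH hot against Control, Jun, Ier3 and Klf6 in EIH against Control, none in AMPH normo against Control cool and Egr1 in AMPH hot against AMPH normo.

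Whether the amphetamine effect differed between the environments was tested as an interaction. The effect on Jun was larger at 22.5 °C by 3.08 ± 1.03 on the log2 scale (unadjusted p = 0.00464 by edgeR, adjusted p = 0.480) and that on Ier3 by 2.93 ± 1.04 (adjusted p = 0.495), and no gene passed (0%), with 1034 at an unadjusted p under 0.05 and 51 called by DESeq2. Fos had -0.44 ± 0.67 (adjusted p = 0.901). Without both AMPH hot 17 and Control 19, Jun (4.09 ± 1.00, adjusted p = 0.0433) and Ier3 (4.41 ± 1.00, adjusted p = 0.0353) passed, with 0.479% of genes called higher. In that same fit, all 6 neutrophil markers had a positive difference with a median log2 value of 2.39 and an unadjusted p under 0.05, and 1 of them passed, as did 1 of 4 platelet markers (median 1.35). Their part in the result was not tested. For Jun and Ier3, the larger part of the fitted interaction lay in the difference between the saline groups. In Control cool against Control, the fitted log2 difference was 1.98 ± 1.03 for Jun (adjusted p = 0.599) and 2.31 ± 1.06 for Ier3 (adjusted p = 0.542), where 0.00714% of genes were called. Those groups shared no library code, and environment and library cannot be told apart.

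EIH and AMPH hot, both labelled hyperthermic, were compared with 15 and 22 rats. None of the 10 genes passed, where 2.71% of the genes tested were called. The smallest adjusted p values were those of Klf6 (0.67 ± 0.26, adjusted p = 0.142) and Jund (0.60 ± 0.26, adjusted p = 0.189). For Jun, the log2 difference was 0.51 ± 0.43, with an interval of 2 SE from -0.36 to 1.37. Klf6 was higher in EIH in each of the 7 library codes that held both groups (0.11 to 2.59). Without the library code term, Egr1 passed (1.16 ± 0.30, adjusted p = 0.0100), with 4.61% of all genes called higher.

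Within each hyperthermic group, the members differed widely between rats, and their levels were set against Hspa1b, a choice made after the values were seen. Hspa1b (2 identifiers with the same values, summed) ran from 3101 to 511792 normalized counts in EIH and from 15.2 to 333184 in AMPH hot. It was at or below 36.7 in both saline groups at 16 and 22.5 °C and between 23.9 and 953 in AMPH normo. Across the 16 EIH rats, Jun correlated with Hspa1b with a Pearson r of 0.860 (permutation p = 2e-05, adjusted 0.000133) and a Spearman rho of 0.879 (permutation p = 1e-05, the smallest that 100000 resamples can give, adjusted 6.67e-05). Leaving out the 2 rats farthest from the median of Hspa1b gave r = 0.900, and subtracting library code means gave 0.947 over 12 rats. Across the 22 AMPH hot rats, r for Jun was 0.796 (permutation p = 8e-05, adjusted 0.000267), with a rho of 0.857 (permutation p = 1e-05, adjusted 6.67e-05), and r was 0.870 without the 2 farthest rats, which removed the cluster of rats 16 and 17.

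Of the 20 relations computed, 9 of 10 in EIH and 10 of 10 in AMPH hot had an adjusted permutation p under 0.05 for Pearson's r. For Spearman's rho, it was 9 of 10 in each group. The other genes were not set against Hspa1b, so no share over all genes stands beside these counts. Whether the relation is particular to these 10 genes was not tested. Ier2 had the lowest r in EIH (0.244, permutation p = 0.363, adjusted 0.363, rho 0.262 with permutation p = 0.327, adjusted 0.327), and Jund had the lowest in AMPH hot (0.434, permutation p = 0.0401, adjusted 0.0422, rho 0.412 with permutation p = 0.0579, adjusted 0.0610). With the 2 farthest rats left out, r ran from 0.420 to 0.900 in EIH and from 0.377 to 0.870 in AMPH hot. Within library codes, it ran from 0.472 to 0.947 over 12 EIH rats and from 0.690 to 0.888 over 16 AMPH hot rats. In AMPH normo, Fos was at a median of 1601 in rats whose Hspa1b did not exceed 953. Both measures came from the same library in each rat.

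**Figure D4:**
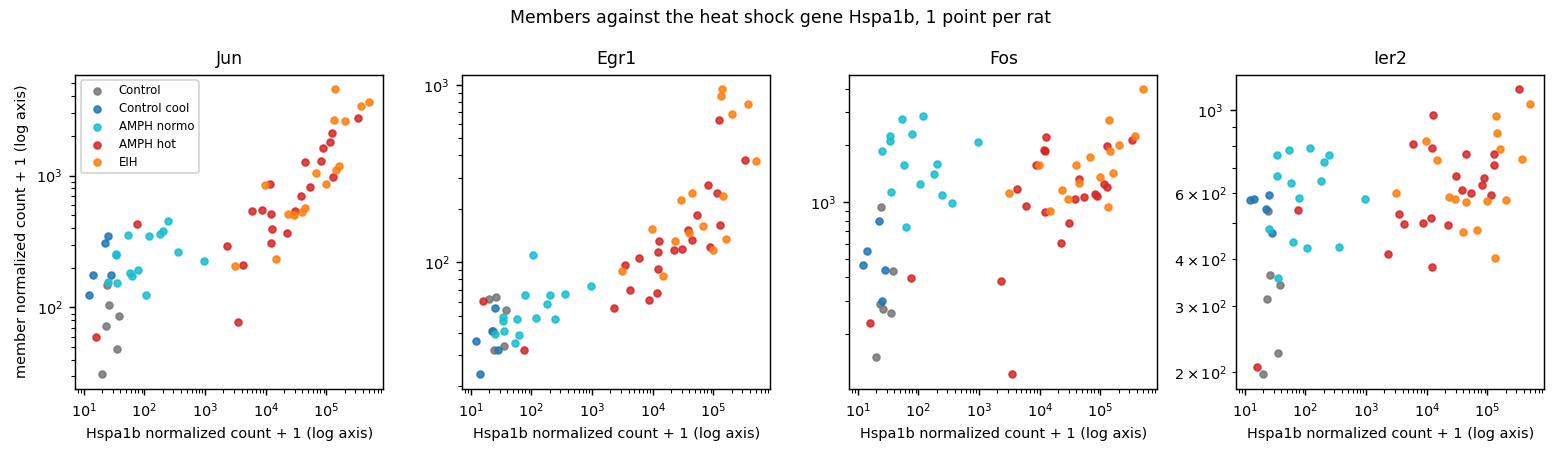
Normalized counts plus 1 of Jun, Egr1, Fos and Ier2 against those of Hspa1b in each rat (log axes), coloured by group. In EIH, r with Hspa1b was 0.860 for Jun and 0.244 for Ier2, and Fos was at a median of 1601 in AMPH normo rats, whose Hspa1b lay between 23.9 and 953.

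The genes most like each member were named from 9596 genes whose mean over the rats reached 50 normalized counts, by Pearson r over 64 rats after library code means were subtracted. Jun was most like Sik1 (r = 0.898), F3, the tissue factor gene (0.891) and Hmox1, encoding the inducible heme oxygenase (0.890). Egr1 was most like Bag3 (0.890), a co-chaperone, Kdm1a (0.860) and Hspd1 (0.857), a mitochondrial chaperonin. Fos was most like Ier2 (0.758), Rlf (0.755) and Csf1 (0.752), and Fosb like Egr1 (0.775), Plk3 (0.752) and Gab1 (0.748). Junb was most like Ppp1r3b (0.935), Nfe2l2 (0.921) and the AP-1 gene Fosl2 (0.920). Ier3 was most like Ffar2 (0.933), Ppp1r3b (0.914) and Rab20 (0.911). Atf3 was most like Csrnp1 (0.897), Jun (0.876) and Trib1 (0.863), Klf6 like Bach1 (0.909), Hcar2 (0.892) and Fnip1 (0.887), Jund like Sema4d (0.838), Lrp12 (0.834) and Sipa1l2 (0.823), and Ier2 like Junb (0.884), Cebpb (0.869) and Spi1 (0.843). Among the 10 genes themselves, r ran from 0.339 for Jund with Egr1 to 0.884 for Junb with Ier2. Fos with Egr1 had 0.353.

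Further genes of the pathway were read from lists. Of 13 AP-1 and ATF partners, 12 were tested. Fosl2, a Fos-related AP-1 subunit, rose by 1.78 in AMPH hot against Control (adjusted p = 0.0388) and by 2.05 in EIH against Control (adjusted p = 0.0397) on the log2 scale, the 1 gene of this list to pass in either comparison. Crem, Atf4, Mafk and Batf had adjusted p from 0.0507 to 0.0705 in the first. None passed in AMPH hot against AMPH normo, EIH against AMPH hot, AMPH normo against Control cool, Control cool against Control or the interaction.

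Of 25 other immediate early genes, 23 were tested. Nr4a3, an orphan nuclear receptor, rose in AMPH hot against Control (2.09 ± 0.60, adjusted p = 0.0479), and Gadd45b, a stress-response gene, rose in EIH against Control (1.30 ± 0.38, adjusted p = 0.0474). Between AMPH hot and AMPH normo, 3 rose and 3 fell. The nuclear receptors Nr4a2 (1.66, adjusted p = 0.0275) and Nr4a3 (1.41, adjusted p = 0.0175) and the kinase Plk2 (1.08, adjusted p = 0.0298) rose. Dusp1, a phosphatase that inactivates MAP kinases (-1.12, adjusted p = 0.0067), Cyr61 (-1.63, adjusted p = 0.0052) and Klf2 (-0.60, adjusted p = 0.0240) fell. In EIH against AMPH hot, the kinase Sgk1 rose (0.70, adjusted p = 0.0129) and Plk2 fell (-1.26, adjusted p = 0.0217). None of this list passed in the other 3 comparisons. Of 15 upstream kinases and serum response factors, Mapk8, encoding the JNK1 kinase, fell in AMPH hot against AMPH normo (-0.63 ± 0.16, adjusted p = 0.0073), and none passed in the other 6 comparisons.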

How the data were processed

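Expected counts per gene were deposited by the authors for 64 rats. Per the study's methods, 51-base reads were trimmed, aligned with Bowtie 0.12.9 to rn5 with Ensembl 70 genes and counted with RSEM 1.2.0, after CASAVA 1.8.2. They carry no normalization, and RSEM shares reads between similar genes. Here they were rounded, and genes listed in every file were kept. Rats with over 5000 Mb counts (Control 20 and 22, EIH 12, AMPH normo 2 and 12) were left out of the fits, leaving 59, and were kept in the levels.

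edgeR 4.0.16 (R 4.3.3) was fitted jointly to the 5 groups with TMM, the quasi-likelihood test and library code, the first part of each library's identifier (14 codes, 3 of 1 rat, which then carry no information), as a term. Genes needed 10 counts in as many rats as the smallest group. Calls had a Benjamini-Hochberg adjusted p under 0.05 over 14000 genes. Levels are counts divided by DESeq2 1.42.0 size factors. Fits were tested on simulated counts with known changes in AMPH hot only, drawn without library code effects or outlying rats. That test does not cover the dependence on library codes and single libraries described above. The p values of the joint fit set a difference against the spread left between rats, as labelled, after group and library code. That spread was estimated over all 5 groups together.

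The members and lists were chosen with earlier results of these data known. Named genes were the 10 members, list genes past the threshold (otherwise up to 4 with the smallest p) and the 3 genes most like each member. Lists also held markers of 8 cell types. Python 3 scripts computed correlations with permutation tests.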

Additional observations from a re-analysis of the deposited data

Results flagged for a closer look

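Among the Control rats (n = 6) and the Control cool rats (n = 5), 20 groups of values were examined for a rat far from the others, and 2 were found, where chance gives about 1 in 20. Control 19 had 946 normalized counts of Fos, against 431 in the next rat, and 639 of Klf6, against 364 in the next. The 2 flags were not independent, since both fell on Control 19. Fos and Klf6 also correlated over the 64 rats (r = 0.735 after library code means were subtracted). The values were not log-transformed, so the stated chance rate may not hold for them. Control 19 also had the highest neutrophil marker sum of the Control rats (426303). No explanation was tested.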

How the results depend on the processing

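The count of the 10 genes called was 3 in AMPH hot against Control. It was 6 by DESeq2 (802 of all 14000 genes called higher), 9 with all rats kept (805 of 13978), 9 without the library code term (934 of 14000) and 8 without both AMPH hot 17 and Control 19 (1587 of 14183), against 305 of 14000 as reported. It was 8 without AMPH hot 17 alone, an alternative chosen after seeing the data, and 0 in the fit within shared library codes (7 against 4 rats). Leaving out 1 Control or Control cool rat gave 0 to 7. In EIH against Control, where the count was also 3, it was 8 by DESeq2 (883 genes called higher), 7 with all rats kept (796), 10 without the library code term (1842), 9 without both rats (1460) against 272 as reported, and 9 without AMPH hot 17 alone, and leaving out 1 saline rat gave 0 to 8. In AMPH hot against AMPH normo, the count of 1 (786 of all 14000 genes called higher) became 3 without the library code term (1316 of 14000). It was also 3 within shared library codes (961 of 12091). In EIH against AMPH hot, the count of 0 (159 of 14000 called higher) became 1 without the library code term (646 of 14000). Without both rats, the count became 2 in the interaction (68 of 14183 called higher). It became 1 in Control cool against Control (Ier3, with 142 of 14183 called higher). In AMPH normo against Control cool it stayed at 0 under all alternatives run. The cause of these changes was not tested.

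The replicate number was tried as a block. In the 4 comparisons with shared numbers, the mean correlations of same-numbered rats were 0.209, -0.038, -0.014 and 0.091. Those of rats with other numbers were -0.069, 0.012, 0.002 and -0.006, and not every same-numbered pair was over 0.1. In AMPH hot against Control, 2 of 4 rats correlated best with their own number. With so few pairs, this check cannot exclude a pairing, and the numbers were treated as names of rats. With the replicate block, 0 of the 10 were called in AMPH hot against Control (4 pairs, 0 of all 12484 genes called), 0 in AMPH normo against Control cool (116 of 11899), 3 in AMPH hot against AMPH normo (2329 of 11911) and 0 in EIH against AMPH hot (279 of 11838). No paired analysis was possible for EIH against Control and Control cool against Control because the groups share no replicate number, or for the interaction.

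Of 1190 fitted values of single genes recomputed, 1073 kept their direction and side of the threshold, and 20 changed sign, none of them past the threshold on either side. For Fos in the interaction, the log2 value was 0.69 without both rats, and leaving out 1 saline rat gave -0.69 to 0.55 (0.55 without Control 19). For Fosb in the interaction, it was 0.48 with all rats kept, 0.18 without both rats, 0.98 without the library code term and -1.08 to 0.12 with 1 saline rat left out (0.12 without Control 18). In AMPH hot against AMPH normo, the sign changed without the library code term for Jund (0.059), Ier2 (-0.0070) and Klf6 (0.19), within shared library codes for Ier2 (-0.039) and Klf6 (0.042), and with the replicate block for Klf6 (0.15). In AMPH normo against Control cool, it changed for Jund with the replicate block (-0.042) and for Ier3 without the library code term (-0.33). In Control cool against Control, leaving out 1 saline rat put Fos between -0.15 and 1.09, below 0 without Control 17, 18 or 21 or Control cool 1. In EIH against AMPH hot, Fosb was 0.59 without the library code term and Ier2 was -0.013 within shared library codes. Median total counts ran from 24435124 in Control cool to 30997757 in Control, and the 4 Control rats in the fits limit the precision of every comparison with Control.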
